A study of Mus musculus with 90 samples.

Results

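The glutathione S-transferases described here are 10 genes from 4 classes of the cytosolic family. Gsta2, Gsta3 and Gsta4 belong to the alpha class, Gstm1, Gstm2, Gstm3 and Gstm6 to the mu class, Gstp1 to the pi class, and Gstt1 and Gstt3 to the theta class. They were chosen by symbol, and each was found through its Ensembl ID in the 4 count tables of mouse liver, where they make up 10 of 27654 gene IDs. All 10 had enough counts to be tested in every comparison of gene levels.

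Glutathione S-transferases join the tripeptide glutathione to electrophilic compounds, which makes drugs, toxins and products of lipid peroxidation easier to export from the cell. The liver is rich in alpha, mu and pi class enzymes, and each class prefers other substrates. Many of the genes are known to be switched on by NRF2, a transcription factor active in oxidative and electrophilic stress. Nuclear receptors that sense foreign compounds are also known to switch on many of them.

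The study asks how the glucocorticoid receptor (GR, gene Nr3c1), which binds corticosterone, shapes the daily course of liver gene expression during caloric restriction. Male C57BL/6J mice, 12 weeks old at the start and housed alone, ate chow, and polyA RNA of whole liver was sequenced. Caloric restriction lowered the daily ration in steps over 4 weeks to 40% fewer calories and then held it there, with food given at ZT12, the hour of lights off. Controls ate freely at first and only at night in the last week (night-restricted feeding).

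The time series has 78 libraries from mice killed every 4 h from ZT0 to ZT20. Its wild type (WT) carries floxed GR alleles (GRfl/fl), and its mutant, GRLKO (GRfl/fl x Alb-Cre), adds Cre under the albumin promoter, which deletes GR in hepatocytes and leaves it in the other cells of the liver. On caloric restriction each of the 12 groups has 3 libraries, 36 in all, and on night-restricted feeding each has 3 or 4, 42 in all. A separate diet comparison has 3 WT livers on caloric restriction and 3 WT control livers at ZT12; these controls carry AL in their titles and night-restricted feeding in their treatment label. In the corticosterone experiment, also WT at ZT12 on night-restricted feeding, 3 mice received corticosterone by intraperitoneal injection every day for 7 days and 3 controls received vehicle. Total counts per library ran from 36442195 to 39492146 in the diet comparison, from 13739631 to 16077943 in the corticosterone experiment, from 14235473 to 20788575 in the time series on caloric restriction and from 10057544 to 17089004 on night-restricted feeding. Levels are given in CPM, the count of a gene relative to all counts of its library, after TMM scaling within each table. Each diet of the time series is a table of its own, so a difference in level between its diets cannot be told apart from a difference between tables.

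The 10 genes lie in 5 places of the genome, given here on GRCm38 (mm10) as GENCODE lists them. Gsta2 (ENSMUSG00000057933, chr9:78331018-78355788, minus strand, 7 exons) and Gsta4 (ENSMUSG00000032348, chr9:78182774-78209349, plus strand, 7 exons) both lie on chromosome 9, with Gsta1 (chr9:78230656-78242684) between them, while Gsta3 (ENSMUSG00000025934, chr1:21240589-21265661, plus strand, 7 exons) lies on chromosome 1. The mu class genes lie together on the minus strand of chromosome 3, each with 8 exons: Gstm6 (ENSMUSG00000068762, chr3:107938847-107943749), Gstm3 (ENSMUSG00000004038, chr3:107963696-107969283), Gstm2 (ENSMUSG00000040562, chr3:107981702-107986453) and Gstm1 (ENSMUSG00000058135, chr3:108012255-108017973). Gstp1 (ENSMUSG00000060803, chr19:4035407-4037985, minus strand, 7 exons) has its near copy Gstp2 beside it at chr19:4040285-4046023. Gstt3 (ENSMUSG00000001665, chr10:75774115-75781414) and Gstt1 (ENSMUSG00000001663, chr10:75783813-75798584) are close together on the minus strand of chromosome 10, with 5 exons each.

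Some members of a class are so alike that a sequenced fragment may fit more than 1 gene. The coding sequences of Gstp1 and Gstp2 are identical at 98.1% of aligned bases, and those of Gsta1 and Gsta2 at 97.6%. Of the 31-base windows of the Gsta2 transcript, 75.6% also occur in another gene, against 67.5% for Gstp1, 37.7% for Gstm3, 34.3% for Gstm1, 27% for Gstt3, 19.5% for Gstm2 and 17.6% for Gstm6. Gsta4 shares none of its windows, and Gsta3 and Gstt1 share 1.05% and 0.695%, so their counts depend little on how shared fragments were divided. For the other members, sums over genes of a class (Gsta1 with Gsta2, Gstm1 to Gstm7, Gstp1 to Gstp3, Gstt1 to Gstt4) are given beside the values of single genes. Most pairs within these sums are less alike than Gstp1 and Gstp2, down to 60.8% for Gstt2 and Gstt4. The gene that holds most of the shared windows is in the sum for Gstp1 and Gstm6, but outside it for Gsta2 (Gm10639, 56.4%), Gstm1 (Gstm2-ps1, 26.9%), Gstt3 (Gm20441, 26.8%), Gstm3 (Gm8834, 24.7%) and Gstm2 (Gm6665, 9.38%), so a sum settles the division of fragments in part.

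The targeted gene was read first. Across the 36 libraries on caloric restriction, Nr3c1 ran from 70.1 to 113 CPM with a median of 93.9 in the 18 WT livers and from 21.4 to 32.1 CPM with a median of 24.9 in the 18 GRLKO livers. On night-restricted feeding it ran from 73 to 118 CPM with a median of 87.3 in 22 WT livers and from 16.2 to 29.1 CPM with a median of 21.5 in 20 GRLKO livers. Every GRLKO liver lay below every WT liver of its diet. Averaged over the 6 time points, Nr3c1 fell by 1.84 on the log2 scale on caloric restriction (SE 0.0352, adjusted p = 1.01e-24) and by 1.96 on night-restricted feeding (SE 0.0473, adjusted p = 5.13e-26). In the WT experiments at ZT12, Nr3c1 stood at 88.7, 90.3 and 95.7 CPM in the controls of the diet comparison, 84.3, 88.4 and 86.6 CPM on caloric restriction, 74.2, 77.5 and 69.5 CPM with vehicle and 61.7, 83.9 and 65.98 CPM with corticosterone. Of 7 known GR targets on a list of controls, Nr3c1 itself left aside, 7 were higher on caloric restriction (where 47.1% of all genes were called, higher or lower) and 7 with corticosterone (8.11%), while 5 were lower in GRLKO on caloric restriction (32.9%) and 4 on night-restricted feeding (18.6%). Fkbp5, a chaperone partner of GR, had log2 fold changes of 2.36 with the diet, 2.63 with corticosterone, -1.65 with GR loss on caloric restriction and -1.11 with GR loss on night-restricted feeding. A gene is said to pass, or is called, when its p from edgeR's quasi-likelihood test, adjusted over all genes of that comparison (Benjamini-Hochberg), is under 0.05.

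The libraries carry the markers of liver. Albumin (Alb) was the most abundant of 7 hepatocyte markers in all 4 experiments, and the summed hepatocyte markers ran from 69970 to 172800 CPM over the time series. In 2 of the 90 libraries, genes of the exocrine pancreas summed to more than 10 CPM: 1317 CPM in replicate 3 of the WT group at ZT12 on caloric restriction and 807.1 CPM in replicate 2 of the WT group at ZT16 on night-restricted feeding. The highest sum in any other library was 4.88 CPM. The comparisons of GR loss that hold these libraries were also fitted without them, a choice made after the data were seen. Of the rhythm calls, that on Gstm2 in WT on night-restricted feeding was lost without the liver at ZT16. The calls of the 10 members in the 6-time means stayed the same (Gstp1 -0.88 on caloric restriction and -0.94 on night-restricted feeding, in log2), and the values at ZT12 are given with that time point.

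Levels of different genes can be compared only per length of transcript. In the 4 WT livers at ZT12 on night-restricted feeding, Gstp1 led with 4285 ± 885 CPM per kilobase (SD, n = 4), ahead of Gsta3 at 1079 ± 63.6, Gstm1 at 975 ± 85.96 and Gstt1 at 188 ± 25.3. Gsta4 (83.9 ± 16.9), Gstm6 (77.8 ± 8.17), Gsta2 (63.4 ± 23.5), Gstm3 (59.1 ± 5.26) and Gstm2 (56.5 ± 8.34) followed, with spreads that mostly reach into one another, and Gstt3 came last at 27.8 ± 12.2. Gsta3 and Gstm1, neighbours in this order, differ by about their spread. On caloric restriction at ZT12 the 3 WT livers put Gsta3 (1596 ± 100.2 CPM per kilobase, SD, n = 3) ahead of Gstm1 (1227 ± 84.1) and Gstp1 (852 ± 179). Gstt1 (263 ± 25.1) and Gsta2 (156 ± 39.6) came next, then Gsta4 (108 ± 9.599), Gstm3 (100 ± 9.86), Gstt3 (88.99 ± 23.9), Gstm6 (74.4 ± 6.005) and Gstm2 (71.5 ± 18.04), again with spreads that mostly reach into one another. The separate diet comparison has the same leading genes: Gstp1 was the first among the AL controls and the third on caloric restriction, with Gsta3 and Gstm1 around it, and Gsta2 was last in both groups.

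The diet comparison asks what caloric restriction does to the WT liver at ZT12, just before the meal. The alpha genes, Gstm1, Gstm3 and both theta genes were higher in the restricted mice, and Gstp1 and Gstm6 were lower. In edgeR, 9 of 10 members passed the threshold, 7 higher and 2 lower, on a background in which 6155 of 13062 (47.1%) of genes passed. For the same 9 the 3 restricted and 3 control livers did not overlap, as for 59% of all genes tested. The median log2 fold change of the 10 members was 0.72, and over all genes tested it was near 0 (-1.8e-06). With a background this large, the number of members called says little by itself, and the sizes and directions of the changes carry the description.

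Gsta2, whose enzyme also reduces lipid hydroperoxides, had the lowest level of the 3 alpha members. It stood at 4.18, 5.11 and 2.69 CPM in the controls and 12.5, 8.52 and 13.99 CPM on caloric restriction. Every restricted liver lay above every control, and the difference was large (log2 fold change 1.54, SE 0.267, adjusted p = 0.00339). Gsta4 encodes the alpha enzyme best known for clearing 4-hydroxynonenal, a product of lipid peroxidation. Its levels were 25.5, 28.8 and 19.2 CPM in the controls and 46.5, 48.4 and 61.5 CPM in the restricted livers. The groups were again apart (log2 fold change 1.09, SE 0.169, adjusted p = 0.00224). Gsta3, known in mice for detoxifying the epoxide of aflatoxin, was far more abundant, with 824, 1007 and 968 CPM against 1630, 1497 and 1416 CPM on caloric restriction. It too was higher in all 3 restricted livers (log2 fold change 0.70, SE 0.101, adjusted p = 0.00174). The sum of Gsta1 and Gsta2 was higher as well (log2 fold change 1.51, SE 0.277, adjusted p = 0.00433), in a fit with class sums where 6152 of 13052 (47.1%) of genes and sums passed.

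In the mu class, Gstm1, a major conjugating enzyme of the liver, rose from 467, 594 and 458 CPM to 741, 956 and 969 CPM. The lowest restricted liver was above the highest control (log2 fold change 0.81, SE 0.144, adjusted p = 0.00382). Gstm3, a mu class gene that electrophiles and NRF2 are known to induce in mouse liver, went from 10.1, 16.2 and 14.4 CPM to 16.5, 28.9 and 22.9 CPM. Its groups met closely, with the lowest restricted liver just above the highest control (log2 fold change 0.74, SE 0.238, adjusted p = 0.0369). The call on Gstm3 was lost without replicate 1 or 3 of the controls or replicate 2 or 3 of the restricted group, with an adjusted p of up to 0.12. Gstm6, a less studied mu class transferase, moved the other way, with 57.97, 85.3 and 85.6 CPM in the controls and 54.96, 50.2 and 43.5 CPM on caloric restriction. All 3 restricted livers were lower (log2 fold change -0.62, SE 0.164, adjusted p = 0.0179), but the call was lost without replicate 2 or 3 of either group, with an adjusted p of up to 0.0646. Gstm2, also of the mu class, overlapped between the groups, at 22.7, 46.2 and 33.4 CPM and 34.8, 45.8 and 27.6 CPM (log2 fold change 0.08, SE 0.273, adjusted p = 0.832). The sum of Gstm1 to Gstm7 was higher (log2 fold change 0.58, SE 0.137, adjusted p = 0.0117), since Gstm1 makes up most of it.

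Gstp1, the pi class enzyme, changed most among the 10. Control livers held 1625, 971 and 1410 CPM and restricted livers 235, 339 and 346 CPM. The lowest control was far above the highest restricted liver (log2 fold change -2.12, SE 0.226, adjusted p = 0.000565). The sum of Gstp1 to Gstp3 gave nearly the same value (log2 fold change -2.12, SE 0.226, adjusted p = 0.000569), and no library left out ended the call. The theta class enzymes act on small halogenated compounds among others. Gstt3 went from 42.1, 58.5 and 36.4 CPM to 106, 108 and 106 CPM, with the 3 restricted livers close together and above all controls (log2 fold change 1.22, SE 0.163, adjusted p = 0.0013). Gstt1 rose less, from 191, 238 and 192 CPM to 302, 269.5 and 244 CPM (log2 fold change 0.39, SE 0.119, adjusted p = 0.0311). The Gstt1 groups did not overlap, but its call was lost without replicate 1 or 3 of the controls or replicate 1 or 2 of the restricted group, with an adjusted p of up to 0.107. The sum of Gstt1 to Gstt4 was higher (log2 fold change 0.54, SE 0.128, adjusted p = 0.0118).

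**Figure D1:**
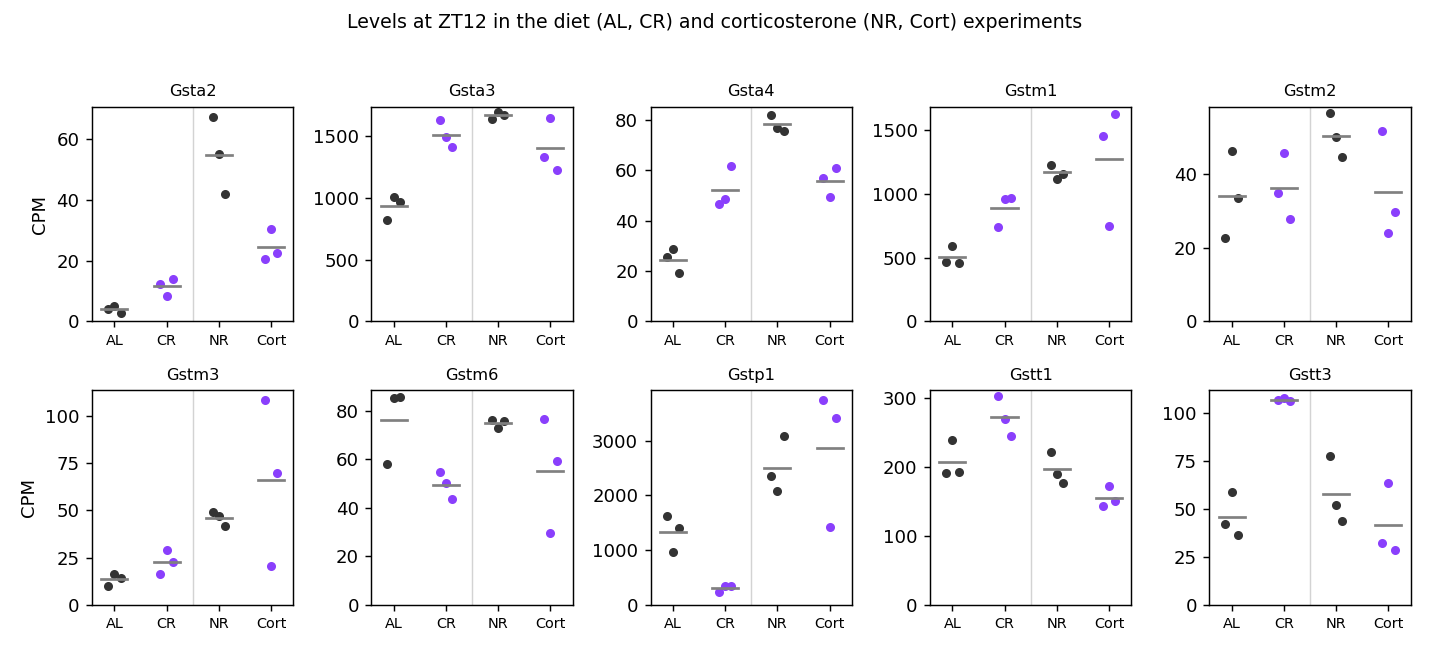
Level of each of the 10 genes in CPM at ZT12 in WT livers of the diet comparison (AL controls and caloric restriction, CR) and of the corticosterone experiment (vehicle, NR, and Cort), 3 livers per group. Gstp1 lies between 971.4 and 1625 CPM in the AL controls and between 235.3 and 345.5 CPM on caloric restriction.

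The direction of these changes can be set beside the time series, where WT livers at ZT12 were also sampled on both diets. There the diets are in separate tables, so diet and table cannot be told apart, and the contrast serves only as an alternative. The log2 difference of Gsta4 was 0.35 (adjusted p = 0.111) and that of Gstm6 was -0.08 (adjusted p = 0.581), so neither passed. The other 7 members called in the diet comparison passed with the same sign. The restricted group of this contrast holds the liver with pancreas genes (replicate 3), and the contrast was not refitted without it. Control livers also differed in level between experiments. Gsta2 stood at 4.18, 5.11 and 2.69 CPM in the AL controls, 67.4, 55.1 and 41.9 CPM in the vehicle controls and 79.7, 64.2, 37.5 and 39.02 CPM in the night-restricted WT livers of the time series at ZT12. For Gsta2 and also for Gsta3, Gsta4, Gstm1, Gstm3 and Gstp1 every AL control is below all of the others. In that difference feeding, table and depth cannot be told apart. For the same genes every restricted liver of the diet comparison is below every restricted WT liver of the time series at ZT12. Gsta2 ran from 8.52 to 13.99 CPM against 96.6 to 163 CPM, and Gstm1 from 741 to 969 CPM against 1462 to 1674 CPM. Lower levels in the diet comparison were therefore not particular to the AL controls, and their cause was not tested.

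The corticosterone experiment asks whether the hormone itself, given by injection to mice on night-restricted feeding, changes the liver at ZT12. Gsta2 and Gsta4, both higher on caloric restriction, were lower after corticosterone. In edgeR 2 of 10 members passed the threshold, both lower, against 935 of 11523 (8.11%) of genes. For 3 members the groups did not overlap (32.9% of all genes), and 3 had an unadjusted p under 0.05 (26% of all genes), so both counts are close to their backgrounds. The median log2 fold change of the members was -0.39, and over all genes it was -0.01.

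Gsta2 stood at 67.4, 55.1 and 41.9 CPM with vehicle and 20.7, 30.6 and 22.4 CPM with corticosterone. All 3 treated livers were below all 3 controls (log2 fold change -1.16, SE 0.212, adjusted p = 0.0215). Gsta4 stood at 81.8, 76.8 and 75.6 CPM with vehicle and 56.8, 49.4 and 60.8 CPM with corticosterone. These groups were apart as well (log2 fold change -0.49, SE 0.1, adjusted p = 0.0298). With 3 livers a group these calls are fragile. That on Gsta2 was lost without replicate 1 or 2 of the controls or replicate 1 or 3 of the treated group (adjusted p up to 0.0845). That on Gsta4 was lost without any of the 3 controls or without replicate 1 or 3 of the treated group (adjusted p up to 0.107). The sum of Gsta1 and Gsta2 was also lower (log2 fold change -1.16, SE 0.248, adjusted p = 0.0335), where 938 of 11513 (8.15%) of genes and sums passed. Gsta3 had levels of 1642, 1695 and 1677 CPM and 1337, 1651 and 1226 CPM (log2 fold change -0.25, SE 0.127, adjusted p = 0.266).

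Replicate 2 of the corticosterone group stood apart for several members. Gstp1 was 3745, 1419 and 3417 CPM in the treated livers and 2351, 2079 and 3082 CPM in the controls, and Gstm1 was 1447, 748 and 1619 CPM against 1225, 1115 and 1157 CPM. In Gstp1 and Gstm1 the second treated liver was the lowest of all 6 and the other two treated livers were higher than every control. Gstm3, at 109, 20.4 and 69.9 CPM against 49.4, 47.2 and 41.98 CPM, had the same pattern, and Gstm6 in the second treated liver was 29.8 CPM against at least 59.4 CPM in the other 5. The same liver had the highest sums of Kupffer and myeloid markers (136.1 CPM, median of the 6 livers 90.93) and of cholangiocyte markers (46.88 CPM, median 30.91), and whether these go with its transferase levels was not tested. Neither Gstp1 (log2 fold change 0.19, SE 0.347, adjusted p = 0.779) nor Gstm1 (log2 fold change 0.13, SE 0.262, adjusted p = 0.814) passed the threshold. Without that liver, Gstm3 passed as higher (0.95, adjusted p = 0.0323) and Gsta3 as lower (-0.39, adjusted p = 0.0451). Without replicate 1 of the treated group, Gstm2 passed as lower (-0.91, adjusted p = 0.0369). Gstm2 stood at 56.4, 49.96 and 44.6 CPM with vehicle and 51.6, 23.9 and 29.8 CPM with corticosterone. The theta gene Gstt1 did not overlap, at 222, 190.1 and 176 CPM against 143, 172 and 150.3 CPM, but did not pass (log2 fold change -0.34, SE 0.12, adjusted p = 0.128). Gstt3 overlapped between the groups (log2 fold change -0.48, SE 0.339, adjusted p = 0.428). None of the sums of the mu, pi and theta genes passed in edgeR, with adjusted p of 0.886, 0.779 and 0.227.

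The time series asks what the liver loses without GR in hepatocytes, at 6 times of day and on both diets. Averaged over the day, Gstp1 and Gstm3 were lower in GRLKO livers on both diets and Gsta4 was higher on both. Gsta2 was higher and Gstm2 lower on caloric restriction, and Gsta3 was slightly lower on both diets. On caloric restriction 6 of 10 members passed in the 6-time mean, 2 higher and 4 lower, against 4297 of 13041 (32.9%) of genes. On night-restricted feeding 4 of 10 passed, 1 higher and 3 lower, against 2389 of 12834 (18.6%) of genes. The median log2 fold change of the 10 members was -0.09 on caloric restriction and -0.05 on night-restricted feeding, and over all genes it was 0.00104 and -0.00354. Whole liver was sequenced, so fewer cells of a type and less RNA per cell cannot be told apart in any of these values.

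Gsta2 ran from 96.6 to 216 CPM with a median of 133 in the WT livers on caloric restriction and from 100.1 to 308 CPM with a median of 198 in the GRLKO livers. The GRLKO livers reached higher, and the ranges overlapped over the day as a whole (log2 fold change 0.45, SE 0.0856, adjusted p = 0.000161). With night-restricted feeding Gsta2 ran from 17.4 to 80.04 CPM with a median of 59.5 in WT and from 40.2 to 108 CPM with a median of 66.7 in GRLKO, and the difference did not pass (log2 fold change 0.24, SE 0.124, adjusted p = 0.18). Gsta4 ran from 65.98 to 130.1 CPM with a median of 96.1 in WT on caloric restriction and from 89.8 to 202 CPM with a median of 126 in GRLKO. The GRLKO median was close to the WT maximum (log2 fold change 0.45, SE 0.0663, adjusted p = 4.86e-06). On night-restricted feeding Gsta4 ran from 47.3 to 102 CPM with a median of 71.6 in WT and from 68.4 to 116 CPM with a median of 86.4 in GRLKO, a smaller shift in the same direction (log2 fold change 0.26, SE 0.0597, adjusted p = 0.00155). Gsta3 was a little lower in GRLKO on caloric restriction (log2 fold change -0.15, SE 0.0439, adjusted p = 0.00775) and on night-restricted feeding (log2 fold change -0.10, SE 0.0348, adjusted p = 0.0352).

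Leaving out any 1 of the 36 libraries on caloric restriction ended none of the 6 calls in the mean, and without replicate 2 of the GRLKO group at ZT20 Gstt3 also passed, as lower (-0.27, adjusted p = 0.0189). On night-restricted feeding the call on Gsta3 was lost without the filter on low counts (adjusted p = 0.073) and for 15 of 42 libraries, with an adjusted p of up to 0.0747. In WT these were replicates 1 and 2 at ZT0, replicate 2 at ZT4, replicate 1 at ZT8, ZT12 and ZT16, and replicate 3 at ZT20. In GRLKO they were replicate 3 at ZT0, replicate 2 at ZT4, replicate 4 at ZT8, replicates 1 and 2 at ZT12, replicates 2 and 3 at ZT16, and replicate 1 at ZT20. The calls on Gsta4, Gstm3 and Gstp1 on night-restricted feeding were kept with each library left out.

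The near copy of Gsta2, Gsta1, moved further. It ran from 5.996 to 42.3 CPM with a median of 15.4 in WT livers on caloric restriction and from 33.01 to 284 CPM with a median of 83.4 in GRLKO livers (log2 fold change 2.48, SE 0.197, adjusted p = 9.93e-11). On night-restricted feeding it ran from 1.3 to 35.7 CPM with a median of 7.54 in WT and from 10.8 to 49.9 CPM with a median of 22.1 in GRLKO (log2 fold change 1.60, SE 0.243, adjusted p = 7.2e-06). Since fragments shared by Gsta1 and Gsta2 could have been given to either, their sum was tested too. It leaves out Gm10639 and Gm3776, which hold 56.4% of the windows of Gsta2 and 87.8% of those of Gsta1. The sum was higher in GRLKO on caloric restriction (log2 fold change 0.87, SE 0.101, adjusted p = 1.06e-07), where 4319 of 13031 (33.1%) of genes and sums passed. It was also higher on night-restricted feeding (log2 fold change 0.49, SE 0.133, adjusted p = 0.00762), where 2387 of 12823 (18.6%) passed.

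Among the mu class genes, Gstm3 ran from 96.97 to 725 CPM with a median of 182 in WT on caloric restriction and from 44.9 to 193 CPM with a median of 111 in GRLKO. The highest WT livers had no counterpart in GRLKO (log2 fold change -1.01, SE 0.182, adjusted p = 7.73e-05). With night-restricted feeding Gstm3 ran from 30.9 to 212 CPM with a median of 73.4 in WT and from 22.6 to 112 CPM with a median of 56.5 in GRLKO (log2 fold change -0.54, SE 0.152, adjusted p = 0.00972). Gstm2 ran from 55.8 to 139 CPM with a median of 108 in WT on caloric restriction and from 47.2 to 102 CPM with a median of 82.1 in GRLKO, where it was lower (log2 fold change -0.35, SE 0.0899, adjusted p = 0.00322). On night-restricted feeding the Gstm2 difference was close to 0 (log2 fold change -0.04, SE 0.0784, adjusted p = 0.796). Gstm1 and Gstm6 did not pass in either mean, with log2 fold changes of -0.01 and -0.03 on caloric restriction and -0.06 and 0.03 on night-restricted feeding. The sum of Gstm1 to Gstm7 did not pass on either diet (-0.11, adjusted p = 0.297, and -0.07, adjusted p = 0.421), so the lower Gstm3 and Gstm2 do not show in the class as a whole.

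Gstp1, the pi class gene, was lower with GR loss on both diets. On caloric restriction it ran from 477 to 1144 CPM with a median of 776 in WT and from 246 to 1068 CPM with a median of 388 in GRLKO. The highest GRLKO value is replicate 1 at ZT0, with 1068, 355 and 349 CPM in that group, and most other GRLKO livers lay below the lowest WT liver (log2 fold change -0.87, SE 0.145, adjusted p = 3.06e-05). On night-restricted feeding Gstp1 ran from 1451 to 4400 CPM with a median of 2142 in WT and from 531 to 2471 CPM with a median of 1238 in GRLKO. The GRLKO median was below every WT liver (log2 fold change -0.94, SE 0.0922, adjusted p = 2.01e-09). The near copy Gstp2, of much lower level, was lower too (log2 fold change -1.70 on caloric restriction and -2.38 on night-restricted feeding), and the sum of Gstp1 to Gstp3 gave -0.88 (adjusted p = 2.71e-05) and -0.94 (adjusted p = 1.82e-09). The theta genes did not pass: Gstt1 had log2 fold changes of 0.06 and 0.08, and Gstt3 of -0.20 and -0.06, on caloric restriction and night-restricted feeding in turn. Gstt2, the other theta gene called, was higher in GRLKO on both diets (0.47 and 0.43). The sums of theta genes had adjusted p of 0.751 and 0.45.

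**Figure D2:**
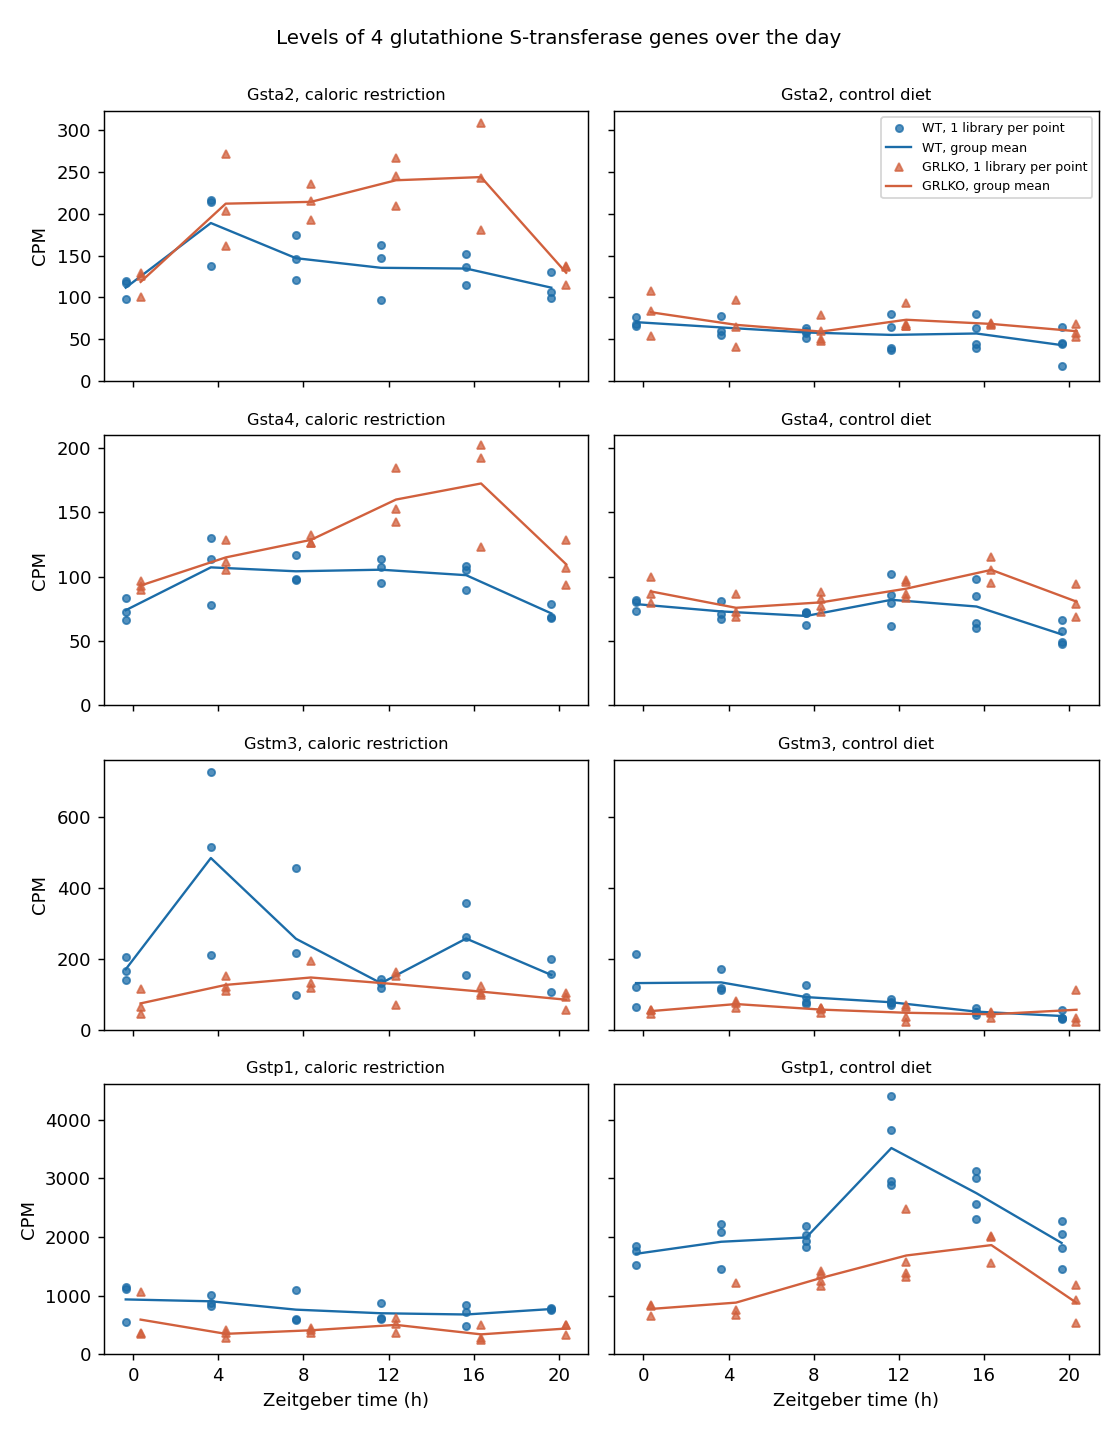
Level in CPM of Gsta2, Gsta4, Gstm3 and Gstp1 against the time of day (ZT, hours) in WT and GRLKO livers on caloric restriction (left) and on the control diet of night-restricted feeding (right), with 1 point per library and lines through the group means. The Gstp1 line of GRLKO livers lies below that of WT livers at all 6 times on both diets.

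The genotypes were also compared at each time point on caloric restriction. Separate tests do not show that a difference depends on the time. The comparisons have 3 livers a group, and the background differs widely between them. The share of all genes that met the same rule stands in brackets after each other count. At ZT0 none of the 10 members passed in edgeR, against 61 of 12140 (0.502%) of genes, while 4 had an unadjusted p under 0.05 (13.2% of genes), 2 passed by DESeq2 (3.06%) and 5 did not overlap (20.3%). At ZT4 1 passed, Gstp1, against 83 of 12025 (0.69%), and 2 passed by DESeq2 (3.45%). At ZT8 none passed in edgeR, against 308 of 12070 (2.55%), while 3 had an unadjusted p under 0.05 (17.3% of genes), 2 passed by DESeq2 (5.27%) and 3 did not overlap (24.6%). At ZT12, the meal time, 2 passed, Gsta2 and Gsta4, against 1795 of 11759 (15.3%), and 3 passed by DESeq2 (17.5%). At ZT16 1 passed, Gstm3, against 541 of 11905 (4.54%), and 3 passed by DESeq2 (7.05%). At ZT20 none passed in edgeR, against 178 of 12076 (1.47%), while 5 had an unadjusted p under 0.05 (19.4% of genes), 4 passed by DESeq2 (5.35%) and 6 did not overlap (26.9%).

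Among the alpha genes, Gsta2 and Gsta4 passed at ZT12. There Gsta2 was 163, 96.6 and 147 CPM in WT and 209, 245 and 266 CPM in GRLKO livers. Gsta4 was 107, 95.2 and 114 CPM in WT and 143, 152 and 184 CPM in GRLKO. For both, every GRLKO liver was above every WT liver (Gsta2: log2 fold change 0.82, SE 0.196, adjusted p = 0.0317, Gsta4: log2 fold change 0.60, SE 0.122, adjusted p = 0.0191). The WT group holds the liver with pancreas genes (replicate 3), and without it the call on Gsta2 was lost (0.88, adjusted p = 0.0742) and that on Gsta4 was kept (0.65, adjusted p = 0.0452). The Gsta2 call was also lost without any of the 3 GRLKO livers (adjusted p up to 0.099), and the Gsta4 call without replicate 2 of WT or replicate 3 of GRLKO (adjusted p up to 0.0627). Without replicate 2 of GRLKO, Gstm1 passed as higher at this time (0.56, adjusted p = 0.0229).

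At ZT16 Gsta2 was 137, 115 and 152 CPM in WT and 243, 180.3 and 308 CPM in GRLKO, and Gsta4 was 108, 89.9 and 105 CPM and 192, 123 and 202 CPM. The groups did not overlap for Gsta2 or Gsta4 and the differences were as large as at ZT12, but neither passed (adjusted p = 0.0503 and 0.0607). Replicate 2 was the lowest GRLKO liver for both genes, and without it both passed (Gsta2 1.04, adjusted p = 0.0276, and Gsta4 0.96, adjusted p = 0.0123). At ZT8 Gsta2 was apart too, with 174, 121 and 146 CPM in WT and 235, 192 and 216 CPM in GRLKO (0.55, adjusted p = 0.106 in edgeR and 0.00679 by DESeq2), and the sum of Gsta1 and Gsta2 passed at ZT8 (0.95, adjusted p = 0.0271), ZT12 (1.33, adjusted p = 0.00851) and ZT16 (1.41, adjusted p = 0.035). Gsta4 was also apart between genotypes at ZT0, ZT8 and ZT20, with log2 fold changes of 0.34, 0.31 and 0.63. It passed at ZT8 without replicate 2 of WT (0.40, adjusted p = 0.0381) and at ZT20 without replicate 3 of GRLKO (0.73, adjusted p = 0.0493). The WT liver left out at ZT8 had the highest sum of Kupffer and myeloid markers on caloric restriction (294.1 CPM, median 134.2). For every member but Gsta4 it was the lowest WT liver at ZT8. Whether these markers go with its transferase levels was not tested. At ZT4 Gsta2 and Gsta4 overlapped, with log2 fold changes of 0.17 and 0.10. Gsta3 had another course. It was apart and lower in GRLKO at ZT0 (-0.34, adjusted p = 0.0783) and ZT20 (-0.31, adjusted p = 0.204), called at neither in edgeR and at ZT0 by DESeq2 (adjusted p = 1.51e-05), and it overlapped at the other 4 times, with -0.10 at ZT12 and 0.13 at ZT16.

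Gstm3 differed most at ZT4, with 725, 514 and 211 CPM in WT and 108, 152 and 119 CPM in GRLKO livers. The WT livers were all higher but far apart from each other, and the difference did not pass (log2 fold change -1.93, SE 0.407, adjusted p = 0.108). Without WT replicate 3, the lowest, it did (-2.29, adjusted p = 0.00808). At ZT16 Gstm3 was 260.5, 154 and 356 CPM in WT and 103, 96.6 and 123 CPM in GRLKO. The groups were apart and the difference passed (log2 fold change -1.25, SE 0.272, adjusted p = 0.0472), though not without replicate 1 or 3 of WT or any of the 3 GRLKO livers (adjusted p up to 0.141) and not in a fit of all 12 groups of the diet (adjusted p = 0.0873). The sum of Gstm1 to Gstm7 did not pass at ZT16 (-0.17, adjusted p = 0.594). At ZT12 Gstm3 overlapped between the genotypes (log2 fold change -0.03, SE 0.293, adjusted p = 0.948). Gstm2 was lower in all 3 GRLKO livers at ZT0, with 125, 139 and 110.1 CPM against 66.2, 93.01 and 73.03 CPM, a difference that did not pass (log2 fold change -0.68, SE 0.143, adjusted p = 0.101).

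Gstp1 at ZT4 was 875, 827 and 1008 CPM in WT and 272, 356 and 416 CPM in GRLKO livers. The highest GRLKO liver had less than the lowest WT liver by a wide margin (log2 fold change -1.38, SE 0.164, adjusted p = 0.0237), and the call was lost without replicate 1 or 2 of WT or replicate 2 of GRLKO (adjusted p up to 0.121). Gstp1 also did not overlap at ZT8 and ZT20, with log2 fold changes of -0.89 and -0.80. At ZT16 it was -0.99, and it passed without replicate 1 of GRLKO (-1.37, adjusted p = 0.0389). At ZT0 and ZT12 it was -0.65 and -0.49, with overlap. Among the theta genes, Gstt3 at ZT20 was 145, 142 and 135 CPM in WT and 48.5, 111 and 62.5 CPM in GRLKO. All GRLKO livers were lower (log2 fold change -0.92, SE 0.268, adjusted p = 0.138), and without replicate 2 of GRLKO, the highest of them, the difference passed (-1.33, adjusted p = 0.0141). Gstt1 differed by at most 0.22 at any time on caloric restriction, in log2, and did not pass.

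On night-restricted feeding the single time points gave calls for Gstp1 alone among the 10. At ZT0 1 member passed, against 63 of 11749 (0.536%) of genes, and 1 by DESeq2 (3.03%). At ZT4 none passed in edgeR, against 23 of 11817 (0.195%), while 2 had an unadjusted p under 0.05 (9.75% of genes), 1 passed by DESeq2 (1.53%) and 2 did not overlap (16%). At ZT8 1 passed, against 166 of 11582 (1.43%), and 3 by DESeq2 (2.77%), and at ZT12 1 passed, against 238 of 11428 (2.08%), and 1 by DESeq2 (4.06%). At ZT16 none passed in edgeR, against 232 of 11723 (1.98%), while 2 had an unadjusted p under 0.05 (16.6% of genes), 1 passed by DESeq2 (5.08%) and 1 did not overlap (16.8%). At ZT20 none passed in edgeR, against 50 of 11906 (0.42%), while 2 had an unadjusted p under 0.05 (11.3% of genes), 2 passed by DESeq2 (2.13%) and 2 did not overlap (11.9%).

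Gstp1 at ZT0 was 1768, 1524 and 1849 CPM in WT and 822, 659.5 and 837 CPM in GRLKO livers. GRLKO livers held less than the lowest WT liver in each case (log2 fold change -1.16, SE 0.137, adjusted p = 0.0337). At ZT8 it was 1927, 1823, 2193 and 2029 CPM in WT and 1253, 1423, 1362 and 1170 CPM in GRLKO. The livers of each group were close together and the groups apart (log2 fold change -0.61, SE 0.0759, adjusted p = 0.00578). At ZT12, its daily maximum in WT, it was 2893, 3828, 4400 and 2953 CPM in WT and 1571, 2471, 1315 and 1382 CPM in GRLKO (log2 fold change -1.06, SE 0.22, adjusted p = 0.0446). The call at ZT8 was kept with each library left out, but lost in a fit of all 12 groups of the diet (adjusted p = 0.293) and with a term for replicate number (adjusted p = 0.0534). That at ZT0 was lost without replicate 1 or 2 of WT or any GRLKO liver (adjusted p up to 0.145), and that at ZT12 without any library except replicate 2 of GRLKO (adjusted p up to 0.13). At ZT4, ZT16 and ZT20 Gstp1 did not overlap either, with log2 fold changes of -1.12, -0.56 and -1.11.

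No other member passed in edgeR at a single time on night-restricted feeding. DESeq2 called Gstm3 at ZT4 (adjusted p = 0.000511) and ZT8 (0.00277), Gsta3 at ZT8 (0.00598) and Gsta4 at ZT20 (0.0441), and a fit of all 12 groups of the diet called Gstm3 at ZT0 (0.0485) and Gsta4 at ZT20 (0.0334). Gstm3 was apart between genotypes at ZT0 (62.9, 119 and 212 CPM in WT, 44.98, 57.1 and 55.9 CPM in GRLKO), ZT4 and ZT8, with log2 fold changes of -1.33, -0.88 and -0.69. At ZT20 its sign was the other way (0.56), with overlap and with 1 high GRLKO liver among 112, 23.4 and 34.2 CPM. That liver had the highest sums of cholangiocyte markers (153.2 CPM, median 39.62) and stellate markers (374.6 CPM, median 188.9) on this diet. Whether these go with its Gstm3 level was not tested. Gsta4 was 66.6, 47.3, 57.5 and 49.3 CPM in WT and 94.5, 68.8 and 78.5 CPM in GRLKO at ZT20. The GRLKO livers were all higher, without passing in edgeR (log2 fold change 0.56, SE 0.148, adjusted p = 0.206). Gsta3 at ZT8 was 1541, 1398, 1501 and 1484 CPM in WT and 1331, 1355, 1275 and 1237 CPM in GRLKO, apart but not called in edgeR (log2 fold change -0.19, SE 0.0482, adjusted p = 0.124). Gsta2, Gstm1, Gstm2, Gstm6 and Gstt3 overlapped between genotypes at each of the 6 times. At ZT8 Gsta4 and Gstt1 were also apart, by 0.21 and 0.12 in log2, and were not called.

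**Figure D3:**
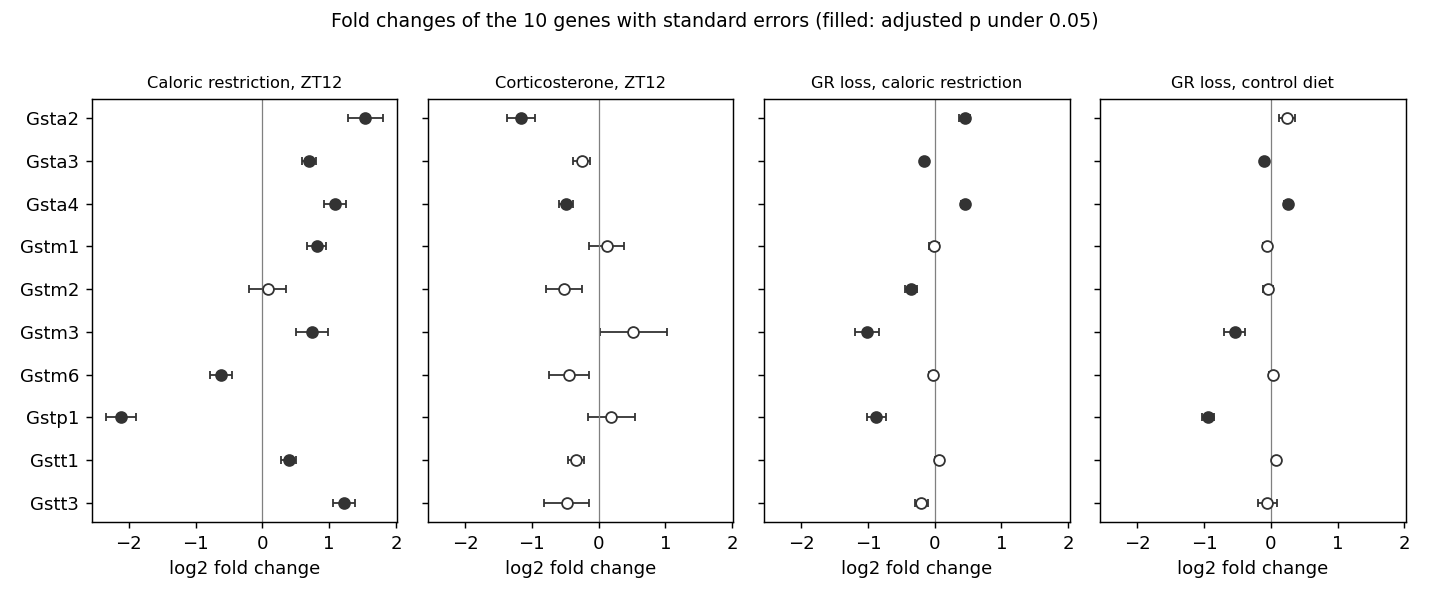
Log2 fold change of the 10 genes with SE bars in 4 comparisons: caloric restriction, corticosterone, and GR loss averaged over 6 times on each diet. Filled points have an adjusted p under 0.05, and Gstp1 is at -2.12 with caloric restriction, 0.19 with corticosterone, -0.87 with GR loss on caloric restriction and -0.94 on night-restricted feeding.

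Whether GR loss acts differently on the diets needs a test of the difference between the 2 differences, from which a constant shift between tables drops out. No member passed it. At ZT12 0 of 10 passed in edgeR, against 123 of 12225 (1.01%) of genes, while 2 had an unadjusted p under 0.05 (14.2% of genes) and 0 passed by DESeq2 (4.09%). Over the mean of 6 times 0 of 10 passed in edgeR, against 403 of 13376 (3.01%) of genes, while 2 had an unadjusted p under 0.05 (15.9% of genes) and 0 passed by DESeq2 (4.25%). So 2 of 10 is close to the share of all genes. The 2 in the mean were Gstm2, lower with GR loss on caloric restriction by a further -0.31 (SE 0.121, unadjusted p = 0.0142, adjusted p = 0.175), and Gsta4, higher by a further 0.19 (SE 0.0901, unadjusted p = 0.0352, adjusted p = 0.27). At ZT12 they were Gsta4 (0.46, SE 0.203, adjusted p = 0.324) and Gstm1 (0.52, SE 0.226, adjusted p = 0.324). For Gstp1 the difference in the mean was 0.07 (SE 0.169), and for Gsta2 0.21 (SE 0.158). The calls of Gsta2 and Gstm2 on caloric restriction and not on night-restricted feeding are therefore not shown to differ between the diets.

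Many enzymes of detoxification follow the clock and the meals of the day. A 24 h rhythm in each series of 6 times was tested with JTK_CYCLE, a rank test with an exact null, on variance-stabilised values. In WT on caloric restriction 2 of 10 members were rhythmic, against 4046 of 18651 (21.7%) of genes. In GRLKO on caloric restriction 7 were rhythmic, against 3772 of 18932 (19.9%). On night-restricted feeding 6 were rhythmic in WT, against 5146 of 18874 (27.3%), and 4 in GRLKO, against 4263 of 18705 (22.8%). These shares include genes of low count. With the test limited to genes that pass the filter on low counts, as all 10 members do, they are 37.1%, 31.6%, 44.7% and 38.6% in the same order, with 2, 7, 6 and 5 members rhythmic.

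Gstm1 was the member with a rhythm in all 4 series. Its group mean was highest at ZT4 in WT on caloric restriction (2883 ± 730.5 CPM, SD, n = 3) and lowest at ZT20 (1492 ± 192 CPM). In the other three series the lowest mean was at ZT20 too, and the highest was at ZT4 or ZT8. The adjusted p was 0.0161 in WT and 0.0107 in GRLKO on caloric restriction, and 0.0202 and 0.033 on night-restricted feeding. The call in WT on caloric restriction was lost without replicate 2 at ZT16 (adjusted p = 0.0502). That in GRLKO on night-restricted feeding was lost for 9 of 20 libraries (adjusted p up to 0.0945): replicate 1 at ZT4, all 4 at ZT8, replicate 3 at ZT12 and ZT16, and replicates 2 and 3 at ZT20.

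Gstm6 was rhythmic in WT on both diets but at other hours. On caloric restriction its mean was highest at ZT0 (131 ± 11.4 CPM) and lowest at ZT16 (77.4 ± 9.86 CPM), with an adjusted p of 0.0125. With night-restricted feeding it was highest at ZT4 (126 ± 19.99 CPM), with an adjusted p of 0.000417. A fitted cosine peaked at 23.8 h on caloric restriction and 4.25 h on night-restricted feeding. Gstp1 had a rhythm on night-restricted feeding in WT, with its highest mean at ZT12 (3518 ± 727 CPM) and its lowest at ZT0 (1714 ± 169 CPM), and an adjusted p of 0.00641. In GRLKO livers on that diet it kept a rhythm (adjusted p = 0.00874) from 773 CPM at ZT0 to 1862 CPM at ZT16. On caloric restriction Gstp1 was not rhythmic in WT (adjusted p = 0.994) or in GRLKO, and its WT means ran from 678 CPM at ZT16 to 935 CPM at ZT0.

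The change of rhythm between diets was tested directly in WT livers with limma, as a difference in sine and cosine. Here 2 of 10 members passed, against 3452 of 12971 (26.6%) of genes: Gstp1 (adjusted p = 0.000955) and Gstm6 (adjusted p = 0.00397). Both calls were kept with each of 40 libraries left out. For Gstp1 the fitted amplitude in WT was 0.476 in log2 with a peak at 13.2 h on night-restricted feeding. On caloric restriction the fit gave 0.233 and 1.87 h. Gstp1 was not called rhythmic there (JTK_CYCLE adjusted p = 0.994), so this hour is not an established peak.

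The alpha genes Gsta2 and Gsta4 were rhythmic in GRLKO livers on caloric restriction. The Gsta2 mean there rose from 118 ± 16.03 CPM at ZT0 to 244 ± 64.1 CPM at ZT16 (SD, n = 3, adjusted p = 0.0294), and the Gsta4 mean from 93.1 ± 3.39 to 172 ± 43.04 CPM at the same hours (adjusted p = 0.00808). In WT on caloric restriction the adjusted p was 0.471 for Gsta2 and 0.107 for Gsta4, though limma's test of sine and cosine called Gsta4 there (adjusted p = 0.00544). Gsta3 was rhythmic in GRLKO on caloric restriction (adjusted p = 0.0107) and in both genotypes on night-restricted feeding (0.00731 in WT, 0.00108 in GRLKO). Gstm6 (0.0473), Gstt1 (0.0372) and Gstt3 (0.0179) complete the 7 in GRLKO on caloric restriction, where Gstt3 fell from 208 CPM at ZT8 to 73.9 CPM at ZT20. On night-restricted feeding Gstm2 was rhythmic in WT (0.0271) and GRLKO (0.0176), and Gstm3 in WT (0.00988), where its mean went from 38.9 CPM at ZT20 to 133 CPM at ZT4.

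A rhythm called in GRLKO and not in WT is not by itself a difference. The direct test of a change of rhythm by GR loss passed for 0 of 10 members on caloric restriction in limma against 85 of 13041 (0.652%) of genes. An unadjusted p under 0.05 was found for 3 (Gsta2, Gsta4 and Gstt3, with adjusted p of 0.284, 0.302 and 0.285) and for 12.1% of genes. On night-restricted feeding it passed for 0 of 10, against 47 of 12834 (0.366%) of genes, and 0 had an unadjusted p under 0.05 (9.82% of genes). This test was run in limma alone.

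Several rhythm calls rest on few libraries. In GRLKO on caloric restriction, that on Gsta2 was lost without any liver at ZT0, replicate 1 at ZT4, replicate 2 or 3 at ZT12, or replicate 1 or 2 at ZT20 (adjusted p up to 0.0856). That on Gstm6 was lost without any of the 18 livers except replicate 3 at ZT8 (adjusted p up to 0.138). That on Gstt1 was lost without 13 of 18 (adjusted p up to 0.11), namely all livers except replicates 1 and 3 at ZT0, replicate 3 at ZT4, replicate 2 at ZT8 and replicate 1 at ZT12. That on Gstt3 was lost without replicate 1 at ZT8 or replicate 1 or 3 at ZT20 (adjusted p up to 0.0543). On night-restricted feeding, Gstm2 in WT was lost without any liver at ZT4, replicate 3 at ZT8, or replicate 2 or 3 at ZT16 (adjusted p up to 0.0839), and in GRLKO without replicate 3 at ZT4 (adjusted p = 0.0551). In GRLKO on that diet Gstm6 was gained without replicate 2 at ZT4 (adjusted p = 0.0209) or at ZT16 (adjusted p = 0.0292).

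Some members of a class varied together from liver to liver and others did not. Across the 78 libraries of the time series, with the mean of each diet removed, every member was compared with 13376 genes by Pearson's r of log2 CPM. These values describe libraries that share genotype and time, and give no test. Gsta2 was most like Gsta4 (r = 0.767, Spearman's rho = 0.781) and Cryl1 (0.707, 0.67), and Gsta4 was most like Acot13 (r = 0.794, rho = 0.72) and then Gsta2. Gsta3 was nearest to Tmem14c (0.761, 0.761) and Bhmt2 (0.755, 0.761). Gstm3 was most like Gstm1 (r = 0.709, rho = 0.636) and Tfe3 (0.687, 0.669), and Gstm1 was most like Soat2 (0.74, 0.77) and Ugdh (0.723, 0.757). Gstm2 and Gstm6 had Gstm7 among their nearest 2 (r = 0.696 and 0.709), with Cs (0.665, 0.664) beside Gstm2 and Gm10319 (0.713, 0.734) beside Gstm6. The 6 pairs of mu genes ran from r = 0.244 (Gstm3 and Gstm6) to 0.709. Gsta3 did not vary with the other alpha genes (r = -0.0761, rho = -0.0796 with Gsta2, and r = -0.107, rho = -0.106 with Gsta4). Gstp1 was nearest to Kcp (r = 0.793, rho = 0.786) and Cyp7b1 (0.73, 0.755). Gstt1 and Gstt3 were each other's nearest (r = 0.659, rho = 0.707), followed by Ces1g (0.65, 0.631) for Gstt1 and Pecr (0.631, 0.526) for Gstt3.

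Promoters are shown for 5 members on which the results turn: Gstp1, lower with GR loss and with caloric restriction, Gsta2, higher with caloric restriction and with GR loss on that diet, Gstm3 and Gstm1, which vary together, and Gsta3, which holds the antioxidant motif. RefSeq promoters of 300 bases on GRCm38.p6 were found for 9 of 10 members, every member but Gsta4, with 13 entries in all. The core of the antioxidant response element, to which NRF2 binds, was searched as TGACNNNGC on both strands (GCNNNGTCA on the other), and is found in 4071 of 32851 promoters (12.4%). The GR hexamer was searched as AGAACA, which reads as TGTTCT on the opposite strand, and is found in 6233 (19%). Among the members, the antioxidant core occurs in Gsta3, and the GR hexamer in entry 1 of Gstm1 (2 matches) and in entries 2 and 3 of Gstm6 (2 and 1 matches). A match is a description of the letters and not a binding site, and no match says only that the letters are not in this window. The sequences run 5' to 3' on the strand of the gene, with the matches in capitals: Gsta2 at chr9:78347096-78347395 (minus strand), inside the longer span that GENCODE gives the gene, Gsta3 at chr1:21240335-21240634 (plus), Gstm1 entry 1 at chr3:108017924-108018223 (minus), Gstm3 at chr3:107969125-107969424 (minus) and Gstp1 at chr19:4037863-4038162 (minus).
Gsta2: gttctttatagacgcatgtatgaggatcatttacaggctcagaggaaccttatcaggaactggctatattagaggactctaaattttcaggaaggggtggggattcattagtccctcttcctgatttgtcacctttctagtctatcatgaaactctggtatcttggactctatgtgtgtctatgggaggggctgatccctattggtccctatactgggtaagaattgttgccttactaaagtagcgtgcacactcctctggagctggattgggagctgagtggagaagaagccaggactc
Gsta3: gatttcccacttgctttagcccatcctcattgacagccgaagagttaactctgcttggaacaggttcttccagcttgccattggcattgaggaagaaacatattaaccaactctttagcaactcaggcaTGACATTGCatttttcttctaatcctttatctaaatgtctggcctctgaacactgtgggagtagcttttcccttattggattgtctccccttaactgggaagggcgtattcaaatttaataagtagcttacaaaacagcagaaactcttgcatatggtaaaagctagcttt
Gstm1: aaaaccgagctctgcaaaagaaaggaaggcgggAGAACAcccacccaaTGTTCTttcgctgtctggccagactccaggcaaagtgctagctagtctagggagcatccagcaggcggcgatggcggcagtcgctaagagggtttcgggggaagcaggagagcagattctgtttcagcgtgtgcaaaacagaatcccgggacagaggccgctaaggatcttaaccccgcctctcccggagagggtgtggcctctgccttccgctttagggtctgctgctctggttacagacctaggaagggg
Gstm3: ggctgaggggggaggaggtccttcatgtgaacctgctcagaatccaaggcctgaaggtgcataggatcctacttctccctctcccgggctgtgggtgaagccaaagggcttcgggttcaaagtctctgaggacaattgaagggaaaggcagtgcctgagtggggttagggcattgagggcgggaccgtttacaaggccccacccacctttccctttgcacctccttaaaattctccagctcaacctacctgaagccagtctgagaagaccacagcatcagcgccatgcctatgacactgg
Gstp1: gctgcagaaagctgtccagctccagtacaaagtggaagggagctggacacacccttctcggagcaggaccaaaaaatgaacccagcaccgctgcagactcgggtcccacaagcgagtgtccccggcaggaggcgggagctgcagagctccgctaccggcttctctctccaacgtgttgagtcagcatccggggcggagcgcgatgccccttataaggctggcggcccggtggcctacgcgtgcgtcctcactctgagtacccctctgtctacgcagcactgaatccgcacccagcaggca

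The rest of the glutathione system was counted from lists of known genes in 4 comparisons: caloric restriction, corticosterone, and GR loss in the mean on caloric restriction and on night-restricted feeding. In turn, 47.1%, 8.11%, 32.9% and 18.6% of all genes passed in them, and each count is to be read against that share. Of a list of other genes with a glutathione S-transferase name, membrane-bound enzymes left aside, 14 were in the tables. With caloric restriction 1 was higher and 2 were lower of 11 tested (Gstm5 0.44, Gstm4 -1.03, Gstz1 -0.37 in log2), and with corticosterone none of 10 passed in edgeR. With GR loss 4 were higher and 2 lower of 11 on caloric restriction, and 3 higher and 2 lower of 12 on night-restricted feeding. Beside Gsta1, Gstp2 and Gstt2 these included Gstcd (0.36) on caloric restriction and Gstk1 (0.18) and Gsto1 (-0.17) on night-restricted feeding. Of the membrane-bound transferases 3 were tested. Mgst3 was higher with caloric restriction (2.0) and with GR loss on both diets (0.51 and 0.47), Mgst1 was lower with caloric restriction (-0.64) and higher with GR loss on night-restricted feeding (0.18), and none passed with corticosterone.

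The transferases use glutathione made in the cell from cysteine. Of the genes of glutathione synthesis and recycling, 5 of 16 were higher with caloric restriction, with the largest changes in Cth (1.22), which makes cysteine, Ggt5 (1.05), Glrx (0.90) and Chac2 (0.38). With corticosterone 1 of 14 was higher, Chac1 (3.89), which degrades glutathione, and 1 lower, Ggt6 (-0.83). With GR loss on caloric restriction Gclc, the catalytic subunit of the limiting enzyme of synthesis, was higher (0.47) and 5 of 16 were lower, among them Glrx (-0.89). On night-restricted feeding 1 of 15 passed, Glrx (-0.47). Of the glutathione peroxidases, Gpx3 was higher with caloric restriction (1.21), none of 5 passed with corticosterone, and Gpx1 and Gpx7 were higher with GR loss on both diets (Gpx7 0.75 and 0.55), joined by Gpx4 on night-restricted feeding (0.20). Glutathione conjugates leave the cell through transporters and end as mercapturates. Of these genes 4 were higher and 3 lower of 11 with caloric restriction, led by Nat8 (-2.81), Dpep1 (1.13), Abcg2 (-1.10) and Abcc5 (1.07). Nat8 was also the 1 called with corticosterone (-1.13, of 10). With GR loss 5 of 11 were higher on caloric restriction and 3 of 11 on night-restricted feeding, led on both by the efflux pumps Abcc4 (1.19 and 0.97) and Abcc3 (0.79 and 0.50).

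Regulators that govern these enzymes were counted in the same way. Of 20 genes of the NRF2 pathway, 6 were higher and 4 lower with caloric restriction, a share close to the 47.1% of all genes, led by Maff (2.59), Cbr1 (1.95), Srxn1 (-1.58) and Hmox1 (1.20). With corticosterone 2 were higher, Maff (4.30) and Mafk (0.81). With GR loss 5 were higher and 2 lower on caloric restriction and 9 higher on night-restricted feeding. Hmox1 led there (0.45 and 0.79), and Nfe2l2, the gene of NRF2, was slightly higher (0.18 and 0.28). Of 17 xenobiotic receptors and targets, 10 were higher and 5 lower with caloric restriction, 7 were higher with corticosterone, 5 higher and 4 lower with GR loss on caloric restriction, and 3 higher and 3 lower on night-restricted feeding. Cyp2b10, the classic target of the receptor CAR, was higher in all 4, by 6.67, 3.18, 2.77 and 3.01 in log2. The median log2 fold change with caloric restriction was 0.0656 for the NRF2 genes and 0.634 for the xenobiotic genes, beside 0.72 for the 10 members. In the same order the medians were 0.0876, 0.151 and -0.39 with corticosterone. With GR loss they were 0.0411, -0.0282 and -0.09 on caloric restriction and 0.139, -0.0542 and -0.05 on night-restricted feeding.

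The mix of cell types in a liver can move a gene's level, so marker lists were read beside these results, against the same shares of all genes (47.1%, 8.11%, 32.9% and 18.6%). In GRLKO livers 6 of 7 hepatocyte markers were lower on both diets (Apoa1 -0.77 and -0.52, Alb -0.21 and -0.21). With caloric restriction 4 were higher and 1 lower (Ass1 1.27, Serpina1c -0.92), and with corticosterone 1 was higher (Hnf4a 0.84). In the diet comparison the hepatocyte sum ran from 89670 to 96110 CPM in the controls and from 157200 to 164200 CPM on caloric restriction. The mean of Alb in these groups was 66370 and 131500 CPM. Of 6 endothelial markers, 4 were higher with caloric restriction, 1 was lower with corticosterone (Kdr -0.62), 6 were higher with GR loss on caloric restriction (Lyve1 1.10) and 0 in edgeR on night-restricted feeding, with Clec4g or Kdr the most abundant. Kupffer and myeloid markers, led by Clec4f, had 0 of 8 called in edgeR except Marco with corticosterone (1.58). Of 4 cholangiocyte markers tested, 2 were higher with caloric restriction (Sox9 1.24), Sox9 was lower with corticosterone (-1.16), Spp1, the most abundant, was higher with GR loss on caloric restriction (0.28) and 0 passed on night-restricted feeding, and Epcam was at 0 in the 12 livers of the WT experiments. Of 6 stellate markers, 3 were higher and 1 lower with caloric restriction (Col1a1 -1.52, Dcn, the most abundant, 0.75), and 1 was lower in each of the other comparisons (Lrat -1.34 with corticosterone, Rgs5 -0.21 and -0.30 with GR loss). Of the erythrocyte genes Alas2 was called (-2.89 with caloric restriction, 1.25 and 0.57 with GR loss), and Hbb-bs was the most abundant. In the time series on caloric restriction the erythrocyte sum was highest in replicate 2 of GRLKO at ZT0 (3842 CPM, median 450.4). The same liver had the highest adipocyte sum (27.37 CPM, median 9.052) and neutrophil sum (3.83 CPM, median 0.8309) of that series. Lymphocyte markers called were Cd4 (-3.44) and Cd79a (-3.78) with caloric restriction and Cd79a (1.13) with GR loss on caloric restriction, with sums of at most 13.6 CPM. Adipocyte markers called were Cidec (-1.73) and Fabp4 (1.12) with caloric restriction, Cidec with GR loss (2.66 and 2.71), and Cfd on night-restricted feeding (6.59). Fabp4 was the most abundant of them, or Cfd in the time series on night-restricted feeding. In that series the adipocyte sum was highest in replicate 3 of GRLKO at ZT12 (88.53 CPM, median 9.578). The adipocyte marker Plin1 was at 0 in all libraries, and Lep in all libraries outside that series. No neutrophil or exocrine pancreas gene was called in edgeR in these 4 comparisons, and neutrophil sums, led by S100a9, stayed at or below 3.83 CPM. The part of any of these markers in the levels of the 10 transferases was not tested.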

How the data were processed

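The authors checked reads with FastQC and MultiQC, quantified them with Salmon and used DESeq2 (build mm10 per the labels). The deposited tables hold estimated counts per gene for 90 libraries. They were rounded to whole numbers. A deposited table of variance-stabilised values was not used here (1 of 5 tables). Gene IDs without a symbol held 0.107% of counts.

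Only the groups compared entered each fit in edgeR 4.0.16 (R 4.3.3): TMM scaling, filterByExpr with a minimum count of 10, quasi-likelihood tests, Benjamini-Hochberg adjustment over all genes, threshold 0.05. CPM values were computed from the deposited counts, within each table. SE is the log2 fold change divided by the root of F. Log2 CPM used a prior count of 2. Rhythms were tested with JTK_CYCLE (24 h, 6 phases, exact null) and differences of rhythm with limma 3.58.1, both on variance-stabilised values from DESeq2 1.42.0. The code was tested on simulated data. Alternatives were DESeq2, RLE factors, no filter, class sums, a replicate block, pooled fits, other values or tests for rhythms, and leaving out each library or time point.

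Named are Nr3c1, all 10 members, the class sums, up to 4 called genes of each list with the largest change per comparison, each marker list's most abundant gene, and each member's 2 nearest genes; a few further genes were named after their values were seen. Members and lists were chosen with earlier results of these data known.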

Additional observations from a re-analysis of the deposited data

Results flagged for a closer look

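In groups of 4 livers, a value was singled out when its gap to the nearest other value exceeded 0.829 of the range of the group, as it does by chance in about 1 in 20 groups. Over 6 groups and 11 genes this gave 7 of 66. Gsta4 was low in replicate 4 of WT at ZT8 on night-restricted feeding (62.2 CPM, the others 71.5 to 72.5). Gstm3 was low in replicate 4 of GRLKO at ZT8 (46.5 CPM, the others 59.7 to 60.8), and Gstm6 in replicate 3 of WT at ZT12 (75.7 CPM, the others 92.7 to 95.6). Gsta2 was high in replicate 2 of GRLKO at ZT12 (92.8 CPM, the others 65.6 to 68.4), and Gstt1 in replicate 1 of WT at ZT16 (241.6 CPM, the others 176.9 to 186.8). Gsta3 was high in replicate 3 of WT at ZT20 (2017 CPM, the others 1716 to 1745), and Gstm3 in replicate 4 of WT at ZT20 (56.4 CPM, the others 30.9 to 34.6). All 7 are on night-restricted feeding, the diet with groups of 4, and they fall in 7 livers.

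The rhythm of 2 members differed between the diets in WT livers, by limma's test of the difference: Gstp1 (adjusted p = 0.000955) and Gstm6 (adjusted p = 0.00397). With 26.6% of all genes called, 2 of 10 is no more than the background. No explanation was tested.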

How the results depend on the processing

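Every comparison was recomputed with 1 alternative at a time. Some alternatives changed more than 1 choice together. DESeq2 changed the test, the scaling and the genes tested. Limma's rhythm test and the fits of all groups of a diet also changed the genes tested. Of 5070 values compared, 4877 stayed on their side of the threshold, 136 lost a call, 56 gained a call and 1 reversed. Under class sums each member of a summed class takes the value of its sum, not its own. That alternative gave 171 of the 4877, 4 of the lost calls, 4 of the gained calls and the reversed value. Among the 4877 are 139 uncalled values whose sign changed. The reversed value is Gstm6 with caloric restriction, which takes the value of its class sum, 0.58 (adjusted p = 0.0117), when the mu genes are summed, because Gstm1 makes up most of that sum. RLE factors changed no call and moved the median of all genes by under 0.01.

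At single time points the number of members called with GR loss differed between the alternatives. The share of all genes called in the same way follows each count. DESeq2 called 2 at ZT0 (3.06%), 2 at ZT4 (3.45%), 2 at ZT8 (5.27%), 3 at ZT12 (17.5%), 3 at ZT16 (7.05%) and 4 at ZT20 (5.35%) on caloric restriction, and 1 at ZT0 (3.03%), 1 at ZT4 (1.53%), 3 at ZT8 (2.77%), 1 at ZT12 (4.06%), 1 at ZT16 (5.08%) and 2 at ZT20 (2.13%) on night-restricted feeding. A fit of all 12 groups of a diet called 2 at ZT4 (2.75%), 2 at ZT16 (7.86%) and 2 at ZT20 (8.64%) on caloric restriction, and 2 at ZT0 (4.91%), 1 at ZT4 (0.374%), 0 at ZT8 (0.281%) and 2 at ZT20 (3.02%) on night-restricted feeding. A term for replicate number called 0 at ZT4 (0.108%), 1 at ZT12 (7.56%) and 3 at ZT16 (2.41%) on caloric restriction, 0 at ZT0 (0.0766%), ZT8 (0.311%) and ZT12 (0.884%) on night-restricted feeding, and 1 with corticosterone (4.63%). The calls lost to this term are Gsta4 with corticosterone (adjusted p = 0.0657), Gstp1 at ZT4 (0.0714) and Gsta2 at ZT12 (0.0679) on caloric restriction, and Gstp1 at ZT0 (0.0658), ZT8 (0.0534) and ZT12 (0.0703) on night-restricted feeding. The fit of 12 groups lost Gstm3 at ZT16 on caloric restriction (0.0873) and Gstp1 at ZT8 on night-restricted feeding (0.293), and its 2 at ZT16 are Gsta2 and Gsta4. Replicate numbers did not pair the livers: over 44 pairs in 14 comparisons the correlation of residuals ran from -0.122 to 0.115. Without the filter Gsta3 was lost in the night-restricted mean (0.073), leaving 3 (10.7%), and 3 were called at ZT16 on caloric restriction (3.18%). With class sums 1 was called at ZT8 on caloric restriction (2.55%). Limma called 5 rhythmic in WT on caloric restriction (54.6%), adding Gsta3, Gsta4 and Gstm2. That test also covered fewer genes, 12624 against 18651, and JTK_CYCLE limited to 12624 genes called 2 (37.1%). Without the liver high in pancreas genes, a choice made after seeing the data, 1 was called at ZT12 on caloric restriction. In that refit 1032 of all genes were called, against 1795 in the main fit. The other comparisons of GR loss that held such a liver gave the same counts without it. Outside these, the rhythm call on Gstm2 in WT on night-restricted feeding was lost without its liver high in pancreas genes. The cause of these changes was not tested.

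With each library left out, the number of members called was 6 to 8 with caloric restriction and 0 to 4 with corticosterone. The share of all genes called in each of these refits is not given here. The ranges in this paragraph show how far a count rests on 1 library, and are not set against a background. With GR loss on caloric restriction it was 0 to 0 at ZT0, 0 to 2 at ZT4, 0 to 1 at ZT8, 0 to 2 at ZT12 and at ZT16, 0 to 1 at ZT20 and 6 to 7 in the mean. On night-restricted feeding it was 0 to 1 at ZT0 and ZT12, 1 to 1 at ZT8, 0 to 0 at ZT4, ZT16 and ZT20, and 3 to 4 in the mean. For the difference in GR loss between diets it was 0 to 0 at ZT12; the 6-time mean of that difference was recomputed without each time point, not without each library, and called 0 each time. Rhythmic members numbered 1 to 2 in WT and 3 to 6 in GRLKO on caloric restriction, 5 to 6 in WT and 3 to 5 in GRLKO on night-restricted feeding. For differences of rhythm it was 2 to 2 between diets and 0 to 0 by GR loss.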

Other observations

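Groups of 3 or 4 livers limit what single time points can show, and a difference that missed the threshold is not shown to be absent. Fragments shared with other genes limit Gsta2 and Gstp1 most, then Gstm3, Gstm1, Gstt3, Gstm2 and Gstm6. Class sums cover what is shared within the sum; for Gsta2, Gstm1, Gstm2, Gstm3 and Gstt3 the gene sharing most windows lies outside it. The tables give no transcript lengths or alignments, so how Salmon divided such fragments could not be read from them. Diet and table coincide in the time series. The corticosterone controls are labelled by feeding, and vehicle is named from the study's methods. No test separated cell number from RNA per cell.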
